A study of Mus musculus with 12 samples.

Results

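The effect of 17β-estradiol (E2) on gene expression was compared between wild-type (WT) mice and mice without estrogen receptor alpha (ERalphaKO), as the E2 effect in WT minus the E2 effect in ERalphaKO. All 12 of the 12 libraries of the study entered, and 14832 of the 23284 genes in the count table had enough counts to be tested. For each gene a value above 0 means that expression rose more, or fell less, with E2 in WT than in ERalphaKO. The tissue was mandibular condylar fibrocartilage, the layer of fibrous tissue and cartilage on the condyle of the jaw joint, taken with all of its cells from female C57BL/6 mice. Every mouse had been ovariectomized at 16 weeks of age and carried a pellet for 1 week, and the tissue was taken at 17 weeks. The groups were WT with placebo (n = 2), WT with a pellet of 0.01 mg E2 made to last 60 days (n = 3), ERalphaKO with placebo (n = 4) and ERalphaKO with that E2 pellet (n = 3). No group had intact ovaries, so E2 was given against a background of ovary loss in both genotypes. Which part of the Esr1 gene is missing, and whether each library came from 1 animal, is not stated in the labels. The p-values therefore measure only how much these libraries vary, which may be technical.

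Estrogen receptor alpha, the product of Esr1, is a transcription factor that binds estradiol, pairs with itself and attaches to estrogen response elements in DNA or to other factors already bound there. It then recruits cofactors that raise or lower transcription of nearby genes. Estrogen receptor beta and a membrane receptor also bind estradiol. A comparison with a knockout is therefore used to ask which part of the response needs estrogen receptor alpha. The genotypes can also differ before E2 is given, and such differences are not set apart by it. Fibrocartilage of the jaw joint is among the tissues that respond to estrogen.

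Libraries held 9696434 to 28750636 counts, at which 3 counts correspond to 0.110 to 0.315 on the counts-per-million scale (CPM). Collagen genes of fibrous tissue and cartilage were high in all of them. Col1a1, which encodes a chain of fibrous collagen I, lay between 27005 and 43587 CPM, and Col2a1, the collagen of cartilage, between 1156 and 14781 CPM. Bone cell markers were high as well. Osteoblast and osteocyte markers, which include Col1a1, summed to 31766 to 50103 CPM, and osteoclast markers to 7329 to 10885 CPM. Esr1 transcript stood at 8.52 to 17.5 CPM over the 5 WT libraries and at 3.65 to 5.78 CPM over the 7 ERalphaKO libraries, without overlap. Its E2 effect gave a difference between genotypes of -0.81 ± 0.29 on the log2 scale (edgeR adjusted p = 0.618), and transcript reads do not show how much receptor protein was left. Esr2, which encodes estrogen receptor beta, had 11 counts in all 12 libraries together, at most 4 in any of them, and was not tested. ERalphaKO placebo replicate 3 stood apart, with 18306 CPM of granulocyte markers and 7897 CPM of skeletal muscle markers.

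In 8 genes (0.0539%) the E2 effect differed between genotypes by edgeR's quasi-likelihood test with Benjamini-Hochberg adjustment over all 14832 genes. In 7 of them the WT effect was the higher, which is 0.0472% of the genes tested, and in 1 it was the lower (0.00674%). The 7 were Greb1, Gbp4, Gbp8, Trpc6, Thbs1, Pi15 and Whrn, and the 1 was Slc20a2. At an unadjusted p under 0.05, 512 genes were higher (3.45%) and 493 lower (3.32%), together 6.78% of those tested. Over all genes tested the median difference was 0.02 and 52.8% of genes were positive. The median standard error was 0.23 for the difference, against 0.17 for the E2 effect in WT and 0.15 for that in ERalphaKO. In whole tissue, fewer cells of a type and less RNA per cell cannot be told apart.

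The 8 genes shared a pattern that the test does not require, since a difference can also come from a change in ERalphaKO alone or from opposite changes. In all 8 the WT change was the larger, with a median size of 3.59 on the log2 scale against 0.14 in ERalphaKO. The WT change was also the larger in 8794 of all 14832 genes tested and in 828 of the 1005 genes with an unadjusted p under 0.05. The 95% interval of the ERalphaKO change held 0 for 7 of the 8 genes, with Greb1 as the exception. In each of the 7 higher genes the 3 WT E2 libraries lay above all 9 other libraries, an arrangement found in 2.3% of all genes tested. Slc20a2 had them below all 9 others, as did 1.53% of genes. Under placebo no genotype difference in these genes passed the test (edgeR adjusted p of 0.330 or more), although Pi15, Trpc6 and Slc20a2 had unadjusted p of 0.00149, 0.0312 and 0.0325, with ERalphaKO minus WT at -1.62, -0.83 and 0.34. Under E2 each of the 8 differed between genotypes with an edgeR adjusted p of 4.49e-04 or less. The same libraries entered the difference by which the 8 were chosen. Neither these p-values nor the pattern and library counts above are therefore separate support, and the shares over all genes are those of an unselected set. Under E2, 0.452% of all genes tested were higher and 0.647% lower in ERalphaKO.

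**Figure D1:**
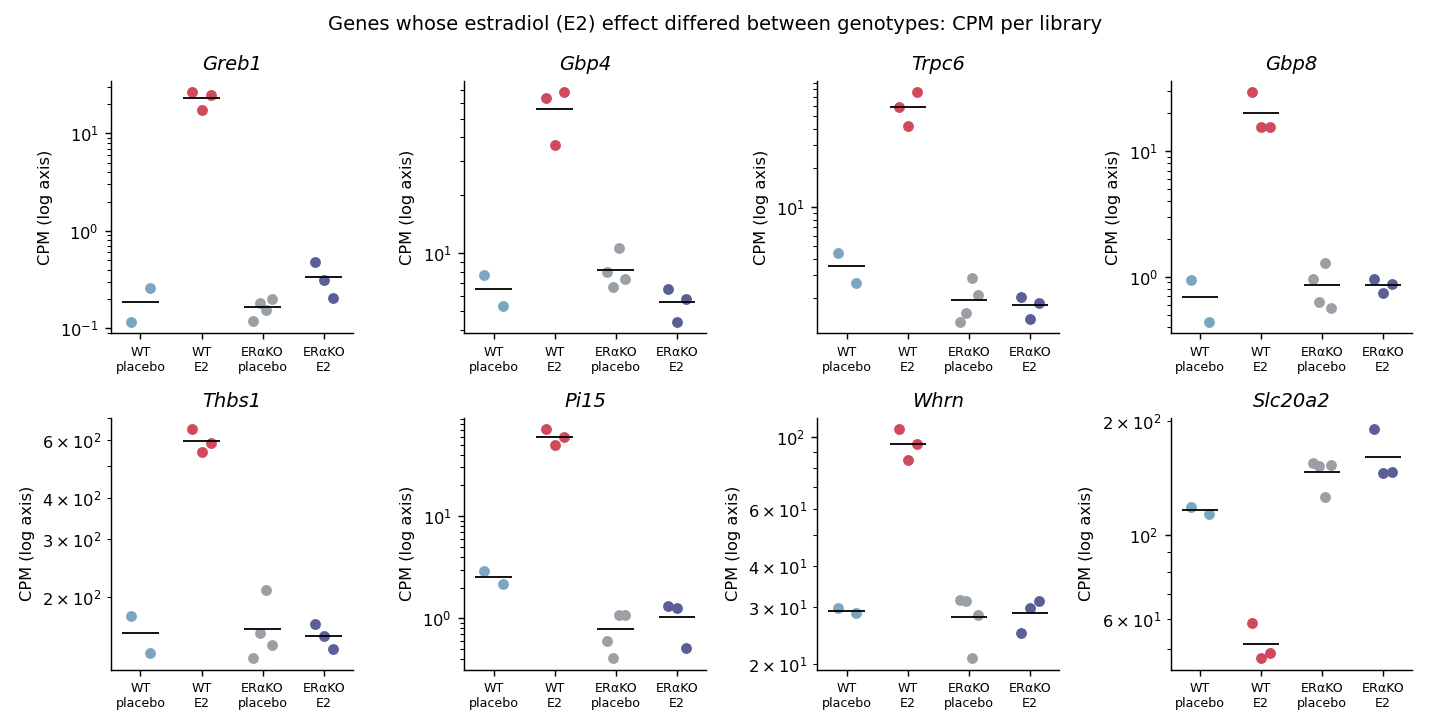
Expression of the 8 genes whose E2 effect differed between genotypes, in CPM on a log axis, 1 point per library and a bar at the group mean. The 3 WT E2 libraries stand above the 9 others in 7 panels and below them in the panel of Slc20a2, where they lie between 47.3 and 58.7 CPM.

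Greb1 encodes a cofactor of estrogen receptor alpha and is itself induced by estrogen in several tissues. It stood at 0.117 and 0.256 CPM in the 2 WT libraries with placebo and at 26.3, 17.4 and 25.04 CPM in the 3 WT E2 libraries. In ERalphaKO it stood at 0.120, 0.180, 0.155 and 0.201 CPM under placebo and at 0.482, 0.315 and 0.204 CPM under E2. WT libraries with E2 were high and all others were low, with 8 counts at most in any of the low ones. The WT effect exceeded that in ERalphaKO by 5.85 ± 0.56 (log2, SE; edgeR adjusted p = 0.00862), a ratio of 57.6 between the E2 folds. All 3 ERalphaKO E2 libraries lay above all 4 ERalphaKO placebo libraries, a 1.95-fold difference (95% interval 1.09- to 3.51-fold) that did not pass the test (unadjusted p = 0.0677, edgeR adjusted p = 0.890). For low counts edgeR can return a larger p than such an interval implies.

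Gbp4 and Gbp8 encode guanylate-binding proteins, interferon-inducible GTPases that act in defence against intracellular microbes. Gbp4 stood at 7.68 and 5.31 CPM in WT under placebo and at 64.2, 36.2 and 68.3 CPM under E2. The ERalphaKO placebo libraries had 7.96, 6.68, 10.7 and 7.36 CPM and the ERalphaKO E2 libraries 6.51, 4.42 and 5.78 CPM. E2 libraries were thus high in WT, but in ERalphaKO each lay below every placebo library. That ERalphaKO change of -0.54 ± 0.26 did not pass the test (edgeR adjusted p = 0.878), and the difference between genotypes was 3.66 ± 0.41 (edgeR adjusted p = 0.0202).

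Gbp8 was scarce without E2, at 0.939 and 0.440 CPM in WT placebo libraries, and reached 29.3, 15.6 and 15.6 CPM in WT E2 libraries. In ERalphaKO it ranged from 0.563 to 1.28 CPM under placebo and from 0.736 to 0.964 CPM under E2. The 2 ERalphaKO groups overlapped and WT E2 stood clear of both. The difference was 4.89 ± 0.61 (edgeR adjusted p = 0.0250), with an ERalphaKO change of 0.01 ± 0.39. Guanylate-binding protein genes resemble each other in sequence, and how reads with several matches were counted is not stated in the labels, and the level of each single gene is uncertain.

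Trpc6 encodes a calcium-permeable cation channel of the plasma membrane. In WT it went from 4.46 and 2.60 CPM in placebo libraries to 58.4, 42.0 and 75.6 CPM in E2 libraries. Placebo libraries of ERalphaKO held 1.32, 1.53, 2.83 and 2.09 CPM and its E2 libraries 2.05, 1.37 and 1.84 CPM. Both ERalphaKO groups overlapped and lay far below WT with E2. The difference was 4.21 ± 0.49 (edgeR adjusted p = 0.0202), an E2 fold 18.5 times that in ERalphaKO.

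Thbs1 encodes thrombospondin-1, a secreted matrix protein that binds cells, collagen and growth factors. Its level was 175 and 135 CPM in WT with placebo and 649, 551 and 587 CPM in WT with E2. In ERalphaKO it was 130, 156, 209 and 143 CPM with placebo and 165, 152 and 139 CPM with E2. The 9 libraries outside WT E2 formed a single range. The difference was 2.01 ± 0.25 (edgeR adjusted p = 0.0250), and the ERalphaKO change of -0.07 ± 0.16 corresponds to a fold between 0.747 and 1.21 at 95%.

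Pi15 encodes a secreted protein known as a peptidase inhibitor. It stood at 2.87 and 2.16 CPM in both WT libraries with placebo and at 71.1, 49.5 and 59.9 CPM in those with E2. Levels in ERalphaKO were 0.598, 0.406, 1.08 and 1.09 CPM under placebo and 1.33, 1.26 and 0.511 CPM under E2. Both WT placebo libraries also lay above all 7 ERalphaKO libraries, a placebo difference of -1.62 ± 0.38 for ERalphaKO minus WT (edgeR adjusted p = 0.330). The E2 effect differed by 4.29 ± 0.56 (edgeR adjusted p = 0.0292).

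Whrn encodes whirlin, a scaffold protein of sensory hair cells and photoreceptors. It was measured at 29.6 and 28.7 CPM in WT under placebo and at 105.7, 84.7 and 95.5 CPM under E2. In ERalphaKO the placebo libraries held 31.5, 31.2, 20.8 and 28.3 CPM and the E2 libraries 24.9, 29.6 and 31.3 CPM. ERalphaKO libraries of either treatment spread around the WT placebo level. The difference was 1.67 ± 0.23 (edgeR adjusted p = 0.0327), and the ERalphaKO change of 0.03 ± 0.14 had a 95% interval of 0.823- to 1.27-fold.

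Slc20a2, which encodes the sodium-dependent phosphate transporter PiT-2, went the other way. WT libraries held 118 and 114 CPM with placebo and 58.7, 47.3 and 48.9 CPM with E2. ERalphaKO libraries held 155, 153, 126 and 154 CPM with placebo and 190.5, 145 and 147 CPM with E2. WT was lower with E2 and ERalphaKO was not, and all 7 ERalphaKO libraries exceeded both WT placebo libraries. The E2 effect in WT lay 1.31 below that in ERalphaKO (-1.31 ± 0.18, edgeR adjusted p = 0.0429), equal to a 2.47-fold lower ratio.

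The ability to call single genes depended on which libraries were present. Of the 8 calls, 0 were left without WT placebo replicate 1, where Greb1 had an adjusted p of 0.0598, and Greb1 alone was left without WT placebo replicate 2, WT E2 replicate 3 or any 1 of the 3 ERalphaKO E2 libraries. Without ERalphaKO placebo replicate 4 the calls left were Gbp4, Gbp8 and Greb1, without ERalphaKO placebo replicate 1 Gbp4, Greb1, Thbs1 and Trpc6, and without WT E2 replicate 1 Gbp4, Gbp8, Greb1, Slc20a2 and Trpc6. Without ERalphaKO placebo replicate 2 Slc20a2 and Whrn were lost, and all 8 remained without WT E2 replicate 2 or ERalphaKO placebo replicate 3. Over these 12 omissions the adjusted p reached 0.243 for Gbp4 and Trpc6, 0.252 for Gbp8 and Thbs1, 0.257 for Pi15, 0.267 for Slc20a2 and 0.269 for Whrn. The sizes moved less, from 5.48 to 6.57 for Greb1, from 3.41 to 3.94 for Gbp4, from 1.84 to 2.21 for Thbs1 and from -1.41 to -1.17 for Slc20a2. Genes higher numbered 0, 1, 4, 28 and 1 without WT placebo replicates 1 and 2 and WT E2 replicates 1, 2 and 3, and genes lower 0, 0, 3, 3 and 0. Higher genes numbered 4, 7, 16 and 3 without ERalphaKO placebo replicates 1 to 4, and lower genes 0, 2, 2 and 0. Without ERalphaKO E2 replicate 1, 2 or 3 there was 1 higher gene and 0 lower.

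Skeletal muscle transcript varied widely between libraries, with overlap between the genotypes under placebo but not under E2. Summed over the 19 tested muscle markers it was 18.4 and 3263 CPM in WT placebo, 301 to 1613 CPM in WT E2, 23.3 to 7897 CPM in ERalphaKO placebo and 21.3 to 79.4 CPM in ERalphaKO E2 libraries. All 19 markers had a positive difference of E2 effects, with a median of 4.58, and 0 passed the test by edgeR (2 with an unadjusted p under 0.05). Leaving out WT placebo replicate 2 took that median to 11.27, and leaving out ERalphaKO placebo replicate 3 took it to 2.91. When the mean log2 CPM of muscle markers was a covariate, 0 genes were called in either direction (1075 with an unadjusted p under 0.05). The edgeR adjusted p was 0.0898 for Greb1, 0.0969 for Gbp4 and Whrn and 0.155 to 0.185 for the other 5, and all 8 differences kept their sign. In that fit Greb1 stood at 5.35, Gbp4 at 3.72, Gbp8 at 4.97, Trpc6 at 4.19, Thbs1 at 1.85, Pi15 at 4.08, Whrn at 1.85 and Slc20a2 at -1.26, so that 3 of the 8 were larger in size than without the covariate. None of the 8 genes is among the muscle markers, and the part of muscle transcript in the result was not tested beyond this fit.

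Promoter sequence was available for 3 of the 8 genes from RefSeq, build GRCm38.p6, as the 250 bases before a transcription start. They are shown because estrogen receptor alpha binds the estrogen response element GGTCANNNTGACC, whose arms are the half-site GGTCA and its reverse complement. The windows are Greb1 at chr12:16800887-16801136 on the minus strand, a later Greb1 start at chr12:16757240-16757489 on the minus strand, Trpc6 at chr9:8543892-8544141 on the plus strand and Whrn at chr4:63495992-63496241 on the minus strand. Each is written 5′ to 3′ on the strand of the gene, and capitals mark a half-site on either strand.
Greb1: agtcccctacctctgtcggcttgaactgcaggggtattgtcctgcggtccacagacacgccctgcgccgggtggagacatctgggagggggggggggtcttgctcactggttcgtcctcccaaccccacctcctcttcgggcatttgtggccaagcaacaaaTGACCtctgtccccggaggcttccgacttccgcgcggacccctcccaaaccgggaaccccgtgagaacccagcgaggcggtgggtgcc
Greb1, later start: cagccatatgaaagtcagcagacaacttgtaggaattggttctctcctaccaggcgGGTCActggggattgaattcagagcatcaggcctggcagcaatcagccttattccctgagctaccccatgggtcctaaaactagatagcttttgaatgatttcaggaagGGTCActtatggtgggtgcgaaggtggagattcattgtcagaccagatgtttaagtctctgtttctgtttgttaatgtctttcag
Trpc6: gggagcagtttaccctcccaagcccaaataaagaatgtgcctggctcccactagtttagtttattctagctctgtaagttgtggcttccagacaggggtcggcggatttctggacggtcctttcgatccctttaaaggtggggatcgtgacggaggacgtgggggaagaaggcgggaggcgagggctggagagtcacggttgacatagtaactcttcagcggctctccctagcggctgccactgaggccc
Whrn: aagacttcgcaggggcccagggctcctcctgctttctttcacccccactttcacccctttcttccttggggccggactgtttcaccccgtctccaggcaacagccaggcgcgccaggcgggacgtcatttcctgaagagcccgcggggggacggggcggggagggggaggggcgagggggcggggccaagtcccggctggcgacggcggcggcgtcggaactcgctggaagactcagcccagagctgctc
The first Greb1 window held 1 half-site, 84 bases before the start on the opposite strand, and the later window 2 on the strand of the gene, 190 and 81 bases before the start. Those of Trpc6 and Whrn held 0. A half-site occurred in 37.6% of the 10480 tested genes with a window, on either strand. The full element occurred in 0 of them, so these windows of 250 bases cannot tell called genes from others by it. With 1 position of its second arm left free, GGTCANNNTGNCC, it occurred in 0.286% of those genes, overlapping the half-site, and in 0 of the 3 called genes. Gbp4, Gbp8, Thbs1, Pi15 and Slc20a2 are named without a window.

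A further 15 genes (0.101% of those tested) had an edgeR adjusted p between 0.05 and 0.1, and these were chosen after their values were seen. They show what lies just outside the threshold. The WT change was the larger in all 15, and in 8794 of all 14832 genes tested. Its median size was 1.92 against 0.18 in ERalphaKO, and the ERalphaKO interval held 0 in 13. In 10 of them the 3 WT E2 libraries lay above all 9 others and in 4 below, against 2.3% and 1.53% of all genes tested. Gbp9 was the exception: its WT E2 libraries, at 13.6 to 22.2 CPM, overlapped the ERalphaKO placebo libraries at 8.53 to 14.1 CPM. The 15 were taken by their p for the difference in these same libraries, so such counts are no separate support.

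**Figure D2:**
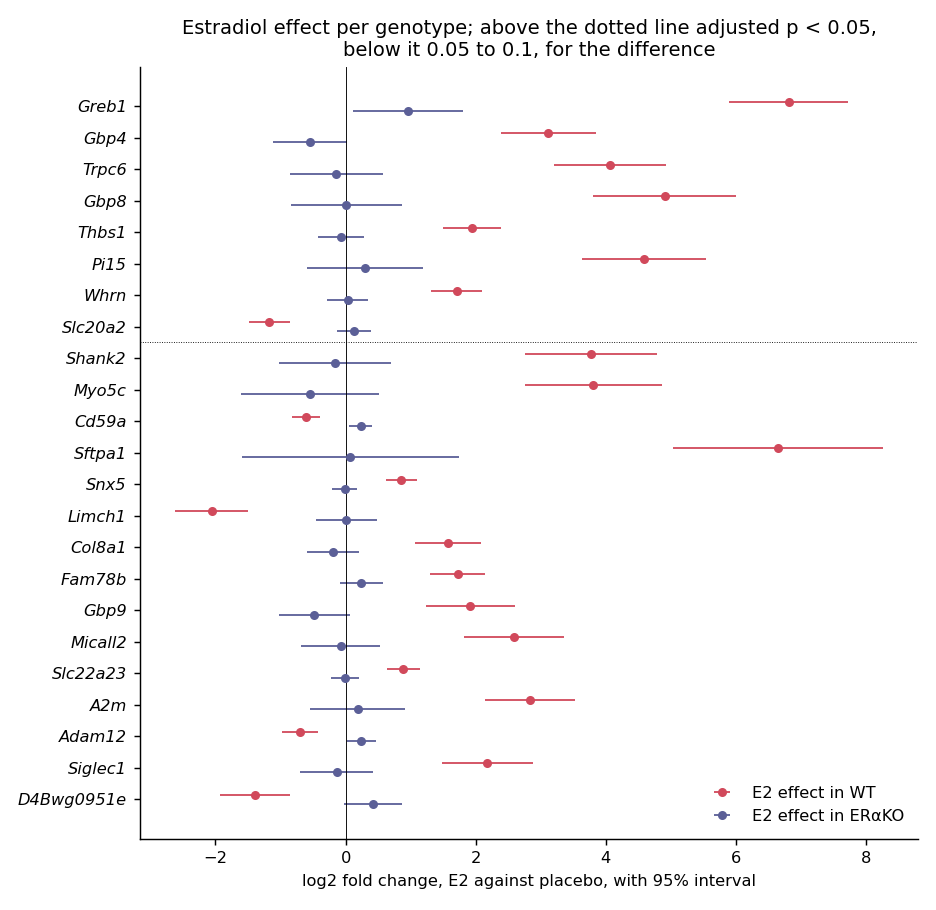
E2 effect on the log2 scale with its 95% interval in WT (3 against 2 libraries) and ERalphaKO (3 against 4), for the 8 genes past the threshold above the dotted line and the 15 next genes below it. ERalphaKO effects gather around 0, between -0.55 for Myo5c and 0.97 for Greb1, while the WT effects run from -2.06 for Limch1 to 6.81 for Greb1.

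Among these 15, Sftpa1 encodes a lectin of the lung surfactant that binds microbes. It stood at 0.587 and 0.550 CPM in WT placebo libraries, at 56.8, 25.2 and 89.9 CPM in WT E2 libraries and at 0.121 to 0.658 CPM in the 7 ERalphaKO libraries. The WT E2 libraries were alone in being high, and the difference was 6.57 ± 1.01 (edgeR adjusted p = 0.0612). A2m, a broad-range protease inhibitor of plasma, was the only gene of the 15 past the threshold between genotypes under placebo. Gbp9, Myo5c and Cd59a had unadjusted edgeR p of 0.00386, 0.0117 and 0.022 there, with ERalphaKO minus WT at 1.06, -1.30 and 0.25. A2m stood at 21.7 and 18.5 CPM in WT placebo and at 137, 130 and 163 CPM in WT E2 libraries. ERalphaKO libraries held 0.852 to 2.03 CPM with placebo and 1.12 to 2.71 CPM with E2. Every ERalphaKO library was far below every WT library of either treatment. The placebo difference for ERalphaKO minus WT was -3.59 ± 0.29 (edgeR adjusted p = 0.00179), and A2m and Esr1 were the only 2 genes past the threshold in that comparison (0.0135% of those tested). The E2 effect on A2m differed by 2.65 ± 0.44 (edgeR adjusted p = 0.0782).

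Shank2, a scaffold protein of synapses, and Myo5c, an unconventional myosin of secretory cells, differed by 3.94 ± 0.59 and 4.36 ± 0.65 (edgeR adjusted p = 0.0596 for both). Col8a1, which encodes a short-chain collagen, went from 120 and 94.0 CPM to 259 to 360 CPM with E2 in WT and stayed at 82.5 to 140 CPM over the ERalphaKO libraries. Siglec1, a sialic acid receptor of macrophages, went from 11.3 and 9.60 CPM to 29.6 to 69.2 CPM in WT and lay at 5.38 to 8.34 CPM in ERalphaKO. In both genes WT E2 stood alone as the high group. Micall2 (2.66 ± 0.44), Fam78b (1.48 ± 0.24), the sorting nexin gene Snx5 (0.88 ± 0.14) and the transporter gene Slc22a23 (0.90 ± 0.15) were the other positive genes, with adjusted p of 0.072 to 0.0782.

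Of the 15, 4 were lower with E2 in WT relative to ERalphaKO. Limch1, an activator of non-muscle myosin II, had 163 and 143 CPM in WT placebo libraries, 49.2, 21.7 and 39.4 CPM in WT E2 libraries and 205 to 260 CPM in the 7 ERalphaKO libraries. It was low in WT E2 alone, and the difference was -2.07 ± 0.33 (edgeR adjusted p = 0.072). Cd59a, an inhibitor of complement lysis, and Adam12, a metalloprotease-disintegrin, had small changes of opposite sign in the 2 genotypes. Cd59a changed by -0.61 ± 0.10 in WT (edgeR adjusted p = 0.0326) and by 0.23 ± 0.08 in ERalphaKO (unadjusted p = 0.0173, edgeR adjusted p = 0.848). Adam12 changed by -0.70 ± 0.12 in WT (edgeR adjusted p = 0.0437) and by 0.24 ± 0.10 in ERalphaKO (unadjusted p = 0.0378, edgeR adjusted p = 0.848). These were the 2 of the 15 whose ERalphaKO interval left out 0. The fourth carries a clone name only.

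By itself the E2 effect in WT passed the test in 68 genes (0.458%), 55 of them higher (0.371% of those tested) and 13 lower (0.0876%). In ERalphaKO 0 genes (0%) passed in either direction by edgeR and by DESeq2 on these counts. At an unadjusted edgeR p under 0.05 there were 846 genes (5.7%), 220 of them higher (1.48%) and 626 lower (4.22%). Normal-approximation p-values were also computed here from the authors' deposited log2 fold changes and standard errors. They put 3 genes higher and 8 lower past an adjusted 0.05. The WT counts depended on single libraries. When WT placebo replicate 1 was left out 5 genes were higher and 0 lower, and when its replicate 2 was left out 1 and 0. Leaving out WT E2 replicate 1 gave 17 and 3, replicate 2 gave 113 and 18, and replicate 3 gave 21 and 5. For ERalphaKO placebo, omission of replicate 1 gave 34 and 7, of replicate 2 gave 31 and 7, of replicate 3 gave 52 and 13 and of replicate 4 gave 27 and 4. For ERalphaKO E2, omission of replicate 1 gave 31 and 6, of replicate 2 gave 33 and 4 and of replicate 3 gave 23 and 4. DESeq2 gave 157 and 89, limma voom 118 and 51, the muscle covariate 31 and 9 and the macrophage covariate 19 and 66. In ERalphaKO the count was 0 in each of these fits. The arms share no library, so the ERalphaKO values of the 68 genes are a separate measurement. For the 55 higher genes the median change was 1.52 in WT and 0.08 in ERalphaKO, where 36 were positive and 19 negative, 65.5% positive against 50% over all genes tested. For the 13 lower genes the medians were -1.17 and 0.03, with 5 negative and 8 positive in ERalphaKO. The upper 95% limit in ERalphaKO fell short of the WT change in all 55 higher genes, and the lower limit likewise in all 13 lower genes. The WT change entered there without its own error, and the genes were chosen for it. These counts are therefore no test of the difference. The ERalphaKO median of the 55 stayed between 0.04 and 0.12 over the 25 alternative fits, and that of the 13 between -0.00 and 0.12. The difference itself passed the test in 8 of the 68, and a gene outside the 8 is not shown to respond alike in both genotypes.

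**Figure D3:**
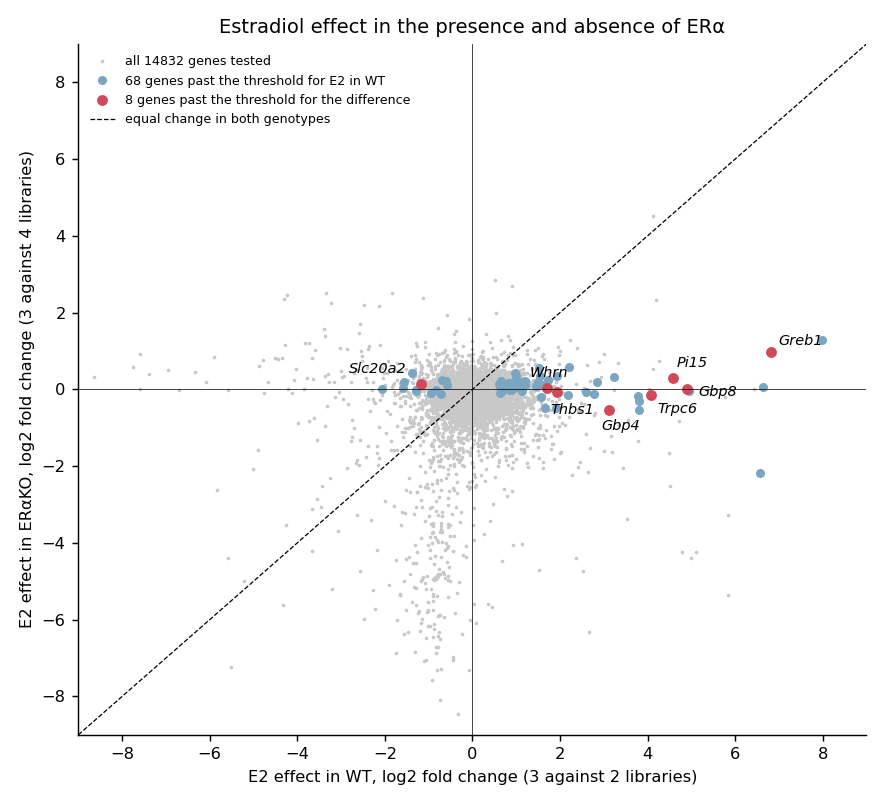
E2 effect in WT (horizontal, log2, 3 against 2 libraries) against E2 effect in ERalphaKO (vertical, log2, 3 against 4 libraries), 1 point per gene, with the line of equal change dashed. The 68 genes past the threshold for E2 in WT lie along the horizontal axis, with ERalphaKO values from -2.18 to 1.30.

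Among the 55, the ERalphaKO change had an unadjusted p under 0.05 in 4, which were chosen after their values were seen: Olfm2 (0.56 ± 0.23 against 1.52 ± 0.27 in WT), Wnt4 (0.34 ± 0.14 against 1.00 ± 0.17), Insc (0.23 ± 0.09 against 0.65 ± 0.11) and 1 predicted gene. Each had an edgeR adjusted p of 0.848 in ERalphaKO, and the difference of Wnt4, which encodes a secreted Wnt ligand, was 0.67 ± 0.22 (edgeR adjusted p = 0.559). Wnt4 stood at 28.0 and 29.7 CPM in WT placebo, 62.4, 42.8 and 68.4 CPM in WT E2, 22.2 to 26.7 CPM in ERalphaKO placebo and 28.1 to 32.8 CPM in ERalphaKO E2 libraries. Each ERalphaKO E2 library of Wnt4 lay above all 4 of its placebo libraries, and WT E2 lay higher still. Only Hcn4, a pacemaker channel gene, and Lgi2, which encodes a secreted neuronal protein, had ERalphaKO changes beyond 1 on the log2 scale. Hcn4 had 56, 43 and 64 counts in WT E2 and at most 2 counts in any other library, and Lgi2 a mean of 12.8 CPM in WT E2 and at most 0.155 CPM in the other group means, so their ERalphaKO values rest on a few counts.

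Gene lists were read by counts and medians beside those of all genes tested, where the median difference was 0.02. Besides called members, the most expressed members are given where a list had none called, and any other list member below was chosen after its values were seen. All 9 tested guanylate-binding protein genes had a positive difference, with a median of 2.40, a WT median of 1.92 and an ERalphaKO median of -0.47. Gbp4 and Gbp8 were called, Gbp6 gave 2.90 ± 0.57 (edgeR adjusted p = 0.185) and Gbp2, the most expressed, 0.37 ± 0.32. Their summed level was 72.3 and 51.7 CPM in WT placebo, 122 to 199 CPM in WT E2, 57.8 to 96.5 CPM in ERalphaKO placebo and 52.2 to 63.6 CPM in ERalphaKO E2 libraries. WT E2 was above every other library, and the list median ranged from 1.79 to 2.65 over the 25 alternatives. Gbp10, with at most 5 counts outside WT E2, gave 10 to 29 counts in WT E2 and 0 in all 3 ERalphaKO E2 libraries.

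Beyond these GTPases, all 20 interferon response genes were positive, with a median of 1.32, yet 0 were called by edgeR and 6 had an unadjusted p under 0.05. The WT median was 0.66 and the ERalphaKO median -0.38. The antiviral gene Rsad2 gave 1.49 ± 0.54 (edgeR adjusted p = 0.618). With the macrophage marker level as a covariate the interferon median was -0.20, and without WT E2 replicate 3 it was 0.70.

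Of 16 macrophage markers 15 were positive, with a median of 0.99, a WT median of 0.91 and an ERalphaKO median of -0.07. None was called by edgeR, while 9 had an unadjusted p under 0.05. Mgl2, a galactose-binding lectin of macrophages, stood at 2.82 and 2.86 CPM in WT placebo, at 43.9, 18.2 and 57.5 CPM in WT E2 and at 1.71 to 7.32 CPM over ERalphaKO libraries. It was high in WT E2 alone and gave 4.11 ± 0.83 (edgeR adjusted p = 0.185). Cx3cr1, the fractalkine receptor, gave 1.52 ± 0.39 (edgeR adjusted p = 0.353). Summed macrophage markers were 928 and 1252 CPM in WT placebo, 1138 to 1718 CPM in WT E2, 1073 to 2981 CPM in ERalphaKO placebo and 944 to 2105 CPM in ERalphaKO E2 libraries, so that sum overlapped between groups. The covariate was another quantity, the mean of their log2 CPM. It was 5.84, 5.16 and 6.02 in the WT E2 libraries and 4.59 to 5.43 in the other libraries. Its highest values were thus in WT E2 replicates 3 and 1, so it partly followed that group. With this covariate 7 genes were higher and 23 lower, and 7 of the 8 calls were kept. Slc20a2 was lost at -1.39 (edgeR adjusted p = 0.0701). Gbp4 stayed past the threshold at 2.62 and Gbp8 at 4.02, both smaller than without the covariate.

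**Figure D4:**
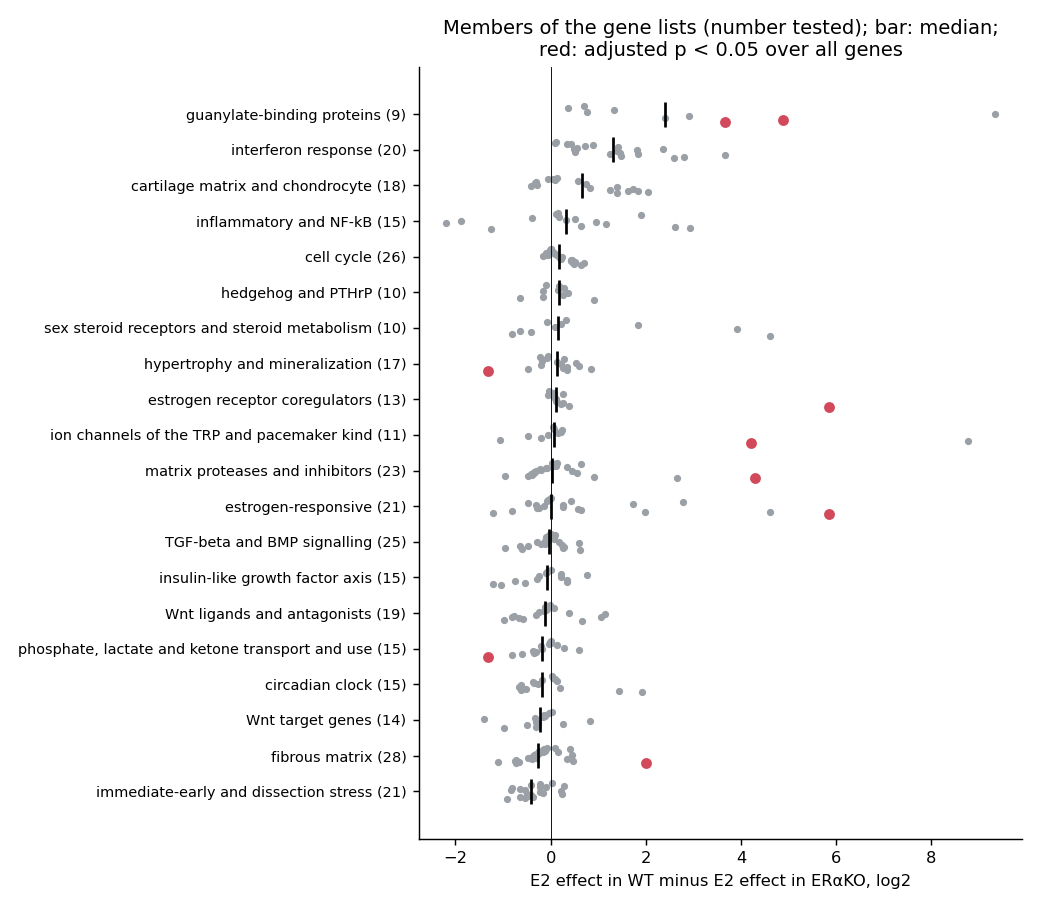
Difference of the E2 effect, WT minus ERalphaKO (log2), for each tested member of 20 gene lists, with the list median as a bar and members past the threshold in red. Medians run from -0.41 for immediate-early and stress genes to 2.40 for guanylate-binding proteins, and most lists straddle 0.

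In the estrogen-responsive list 11 of 21 were positive and 10 negative around a median of 0.00 (-0.06 to 0.13 over the 25 alternatives), with Greb1 the only called member. Pgr, the progesterone receptor gene, had 29, 18 and 21 counts in WT E2 libraries, 2 and 4 in WT placebo and at most 3 in any ERalphaKO library. Its WT E2 libraries stood alone, but the difference of 4.61 ± 1.32 did not pass (edgeR adjusted p = 0.477). Igf1, a growth factor induced by estrogen in uterus, had 111 and 137 CPM in WT placebo, 67.6, 62.4 and 29.8 CPM in WT E2 and 76.6 to 93.9 CPM in ERalphaKO libraries. It was lowest in WT with E2, and the difference was -1.22 ± 0.35 (edgeR adjusted p = 0.466). In the coregulator list 11 of 13 were positive with a median of 0.11. Besides Greb1 the largest in that list was Ncoa3, a histone acetyltransferase coactivator, at 0.39 ± 0.16 (edgeR adjusted p = 0.687). Ncoa7, outside the list and chosen after its values were seen, gave 0.73 ± 0.15 (edgeR adjusted p = 0.201). Of the sex steroid receptor and metabolism genes 6 of 10 were positive, and the most expressed, Hsd17b4 and Esrra, gave 0.09 ± 0.09 and -0.07 ± 0.27.

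Cartilage and fibrous matrix lists had medians of opposite sign. Among cartilage genes 13 of 18 were positive with a median of 0.66, 0 called by edgeR and 3 at an unadjusted p under 0.05. Chad, the cartilage protein chondroadherin, stood at 337 and 417 CPM in WT placebo, 1434, 583 and 2364 CPM in WT E2, 247 to 581 CPM in ERalphaKO placebo and 267 to 459 CPM in ERalphaKO E2 libraries. WT E2 was above all others, by a margin as small as that between 581 and 583 CPM, and the difference was 2.04 ± 0.67 (edgeR adjusted p = 0.555). Cilp, cartilage intermediate layer protein, gave 1.39 ± 0.42 (edgeR adjusted p = 0.493) and Col2a1 1.24 ± 0.77. Without WT E2 replicate 3, which had 14781 CPM of Col2a1 against 4034 and 5490 CPM in the other WT E2 libraries, the cartilage median was -0.04, and over the 25 alternatives it reached up to 1.12. In the fibrous matrix list 21 of 28 were negative with a median of -0.26, and its 1 called member, Thbs1, was positive. Col1a1 had 41689 and 42539 CPM in WT placebo, 28093 to 31176 CPM in WT E2, 27005 to 40197 CPM in ERalphaKO placebo and 39742 to 43587 CPM in ERalphaKO E2 libraries. Its difference was -0.72 ± 0.22 (edgeR adjusted p = 0.493), and the list median turned to 0.14 with the macrophage covariate.

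Slc20a2 was the only called member of both the hypertrophy and mineralization list, with 9 of 17 positive and a median of 0.13, and the list of phosphate, lactate and ketone transport, with 10 of 15 negative and a median of -0.18. In the latter the ketone enzyme gene Bdh1 gave -0.80 ± 0.17 (edgeR adjusted p = 0.222) and the lactate exporter gene Slc16a3 -0.61 ± 0.14 (edgeR adjusted p = 0.273). Pi15 was the called member among proteases and inhibitors, of which 12 of 23 were positive. In that list Adamts5, an aggrecan-cleaving protease, gave 0.92 ± 0.22 (edgeR adjusted p = 0.334) and Serpinf1, an antiangiogenic serpin, -0.96 ± 0.25 (edgeR adjusted p = 0.359). Trpc6 was the called member among 11 channels of the TRP and pacemaker kind, 7 of them positive.

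The remaining signalling lists held no called gene by edgeR. Numbers in brackets after a list count members with an unadjusted p under 0.05 in either direction. Wnt ligands and antagonists were negative in 14 of 19 (4 with an unadjusted p under 0.05) and Wnt target genes in 11 of 14 (1), with the most expressed members Wif1 at -0.66 ± 0.28 and Wisp1 at -0.03 ± 0.36. TGF-beta and BMP genes were negative in 14 of 25 (2), with Tgfbr2 at -0.04 ± 0.13. Hedgehog and PTHrP genes were positive in 6 of 10 (0), with the receptor gene Pth1r at 0.26 ± 0.22. The insulin-like growth factor axis was negative in 9 of 15 (3), with Igf2 at -1.04 ± 0.28 (edgeR adjusted p = 0.393). Inflammatory genes were positive in 11 of 15 (4), cell cycle genes in 19 of 26 (0) and clock genes in 7 of 15 (1), with Arntl at 1.92 ± 0.67 (edgeR adjusted p = 0.597). Immediate-early and dissection stress genes were negative in 17 of 21 (0) with a median of -0.41, which was 0.24 without WT placebo replicate 2 and -0.78 without ERalphaKO placebo replicate 4.

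Markers of other cells moved unequally between the 4 groups, and their part in the differences was not tested. Lymphocyte markers summed to 11.6 to 22.2 CPM over the WT libraries and to 16.5 to 322 CPM over the ERalphaKO libraries. Granulocyte markers spanned 5.74 to 1313 CPM in WT and 20.6 to 18306 CPM in ERalphaKO. Their median differences were 1.25 and 2.35, with 0 of 13 and 0 of 16 markers called by edgeR (0 and 1 with an unadjusted p under 0.05). Without ERalphaKO E2 replicate 1 these medians were 3.13 and 5.08. The lymphocyte median was 0.77, 0.60 and 0.78 without WT E2 replicate 1, WT E2 replicate 3 and ERalphaKO E2 replicate 3. For granulocytes, leaving out WT placebo replicate 1 gave 4.70, WT placebo replicate 2 gave 1.45, WT E2 replicate 3 gave -4.54 and ERalphaKO placebo replicate 3 gave -0.15. Endothelial markers were positive in 12 of 13 with a median of 0.21, nerve markers negative in 10 of 11 with a median of -0.40, osteoclast markers negative in 9 of 10 with a median of -0.13, and osteoblast markers divided 7 to 7. Erythroid markers were negative in 6 of 6 with a median of -2.36 (1.41 without ERalphaKO E2 replicate 3), and adipocyte markers in 6 of 9 with a median of -0.42 (1.30 without WT placebo replicate 2). With the macrophage covariate the endothelial median was -0.36, the lymphocyte median -0.13 and the granulocyte median -6.97. Epithelial and salivary gland markers were mostly too low to test, with 3 of 10 and 2 of 9 tested.

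**Figure D5:**
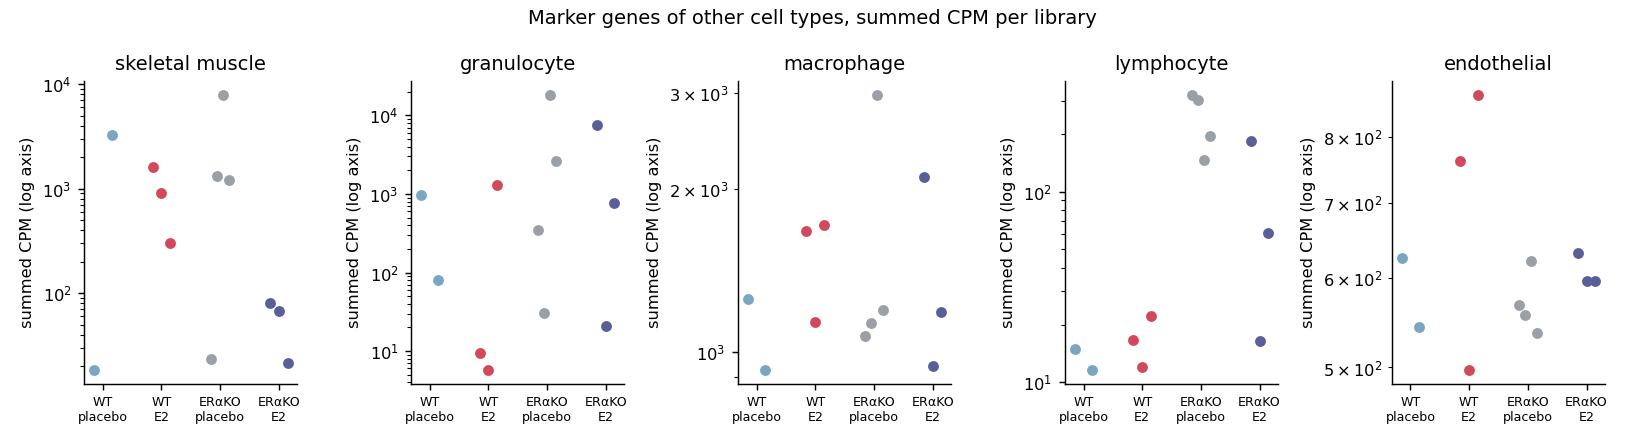
Summed CPM of marker genes for 5 cell types in each of the 12 libraries, on log axes, by genotype and treatment. Skeletal muscle markers are below 80 CPM in all 3 ERalphaKO E2 libraries, and ERalphaKO placebo replicate 3 has the highest sums for muscle (7897), granulocytes (18306) and macrophages (2981).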

How the data were processed

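RNA from whole fibrocartilage was sequenced as 100-base reads from polyA libraries, in 12 libraries of 4 groups taken from the labels. The authors deposited raw counts per gene, 9696434 to 28750636 per library. Per the submitters' processing notes, bcl2fastq 2.17, TopHat and the mm9 build were used. For the counting tool, annotation and strand setting the sources used here give nothing. The authors' deposited tables of log2 fold changes entered only as an alternative. For it, p-values were computed here by normal approximation from those changes and their standard errors, with Benjamini-Hochberg adjustment.

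Of 23284 genes, 14832 passed edgeR's filter (minimum count 10) and were fitted together with edgeR 4.0.16 in R 4.3.3 (TMM scaling, 1 mean per group, quasi-likelihood test, 8 residual degrees of freedom). The interaction contrast was tested two-sided, with Benjamini-Hochberg adjustment over all genes tested and a threshold of 0.05. Errors after ± are standard errors and intervals are 95% intervals from the same fit. CPM were computed on the TMM-scaled library size. The scripts were tested on simulated data. DESeq2 1.42.0 and limma 3.58.1 (voom with quality weights), other scalings and filters, a replicate block, marker covariates and omission of single libraries were the alternatives. A marker covariate was the mean log2 CPM of the tested markers of a list, not their summed CPM. The model with the macrophage covariate and the omission of 2 libraries together were added after seeing the data.

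Named genes were Esr1, all called genes, up to 3 called members of each list or otherwise up to 2 of its most expressed members, without predicted genes or clone names; 1 result under this rule is not reported here. Members and lists were chosen with earlier results of these data known. Promoter windows came from RefSeq (GRCm38.p6) by gene symbol, and no position was taken over from mm9. They were found for 10480 tested genes (70.7%).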

Additional observations from a re-analysis of the deposited data

Results flagged for a closer look

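The E2 effect differed between genotypes by edgeR's test of the difference itself in 8 genes, with values on the log2 scale of 5.85 for Greb1, 3.66 for Gbp4, 4.21 for Trpc6, 4.89 for Gbp8, 2.01 for Thbs1, 4.29 for Pi15, 1.67 for Whrn and -1.31 for Slc20a2.

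Of 105 genes and list sums examined in the ERalphaKO placebo group, the only group with 4 libraries, 18 had 1 library far from the other 3 by Dixon's criterion at the 95% level, which chance exceeds in about 1 in 20. The series are not independent. ERalphaKO placebo replicate 3 was low in Slc20a2 (126 CPM against 153 to 155), Dkk3 (537 against 726 to 745) and A2m (0.852 against 1.86 to 2.03). It was high in Lcn2 (1175 CPM against 0.361 to 169.7), Top2a (148 against 89.1 to 92.4) and Mx2 (3.06 against 0.812 to 1.13). Its list sums were also high: 4256 CPM for estrogen-responsive genes, 1576 for inflammatory genes, 1198 for cell cycle genes, 7897 for muscle markers, 18306 for granulocyte markers, 2981 for macrophage markers and 214 for adipocyte markers.

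Replicate 1 of that group was high in Limch1 (250.3 CPM against 213 to 216) and Cilp (568 against 306 to 320.5). Replicate 2 was high in Cd59a (47.5 CPM against 39.8 to 40.7). Replicate 4 was high in immediate-early and stress genes (2845 CPM against 1011 to 1307) and had 0.0804 CPM of Hcn4, which rests on 2 counts, against 0 in the others.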

How the results depend on the processing

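All 8 differences kept their sign in each of the 25 alternatives. Counts of genes higher and lower, 7 and 1 as reported, were 3 and 0 with the replicate block, 0 and 0 with the muscle covariate, 21 and 12 with the granulocyte covariate, 58 and 43 by DESeq2, and 25 and 5 by limma voom. Normal-approximation p-values computed here from the authors' deposited changes and standard errors gave 67 and 31. Upper-quartile scaling gave 0 lower, the macrophage covariate 23 lower, and the omission of ERalphaKO placebo replicate 3 with ERalphaKO E2 replicate 1 gave 11 higher. Omission of single libraries gave 0 to 28 higher and 0 to 3 lower. The cause was not tested.

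Replicate numbers were not treated as pairs, since the correlation of deviations exceeded 0.1 in 9 of 15 same-numbered pairs (-0.33 to 0.50) and not in all. It did so for all 6 pairs numbered 2 (0.21 to 0.47), and 6 of 12 libraries correlated best with their own number. With the replicate block Gbp4, Gbp8 and Trpc6 kept their calls, the other 5 did not, and Greb1 was at 5.75 with an edgeR adjusted p of 0.0942.

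Scarce transcripts limit the text: Pgr, Hcn4, Gbp10 and Lgi2 had few counts outside WT E2, and the smallest group, WT placebo, had 2 libraries.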
